A study of Caenorhabditis elegans with 24 samples.

Results

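The chaperone genes of C. elegans described here are the 58 genes, of 21982 in the deposited table, whose symbol is hsp, dnj or cct followed by a number: 21 hsp genes (heat shock proteins), 29 dnj genes (J proteins) and 8 cct genes (the subunits of the cytosolic chaperonin). They were picked by name alone, by a rule that uses no measured value, though with earlier results of these data known. By the compartment and protein class that their names are known for, they comprise 4 cytosolic HSP70, HSP90 and HSP110 genes, 6 genes of the endoplasmic reticulum (ER), 5 mitochondrial genes, 12 small heat shock protein genes, the 8 chaperonin genes and 23 further J proteins. 1 more gene ID meets the rule, a second hsp-16.48 copy, and it was not analysed here. The set holds 2 IDs with the symbol hsp-16.1, and the one at V:9090077-9090604 of WBcel235 is called hsp-16.11 here, the name RefSeq gives it at those coordinates.

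RNA was sequenced from whole adults at day 3 of adulthood, with about 400 worms per sample and 4 biological replicates in each of 6 groups, 24 libraries in all. RAGA-1::AID Somatic animals (strain WBM1438) carry raga-1(wbm40), in which the endogenous gene is fused to the auxin-inducible degron (AID) and EmGFP, together with the transgene ieSi57, in which the eft-3 promoter drives TIR1::mRuby in somatic cells. RAGA-1::AID Neuronal animals (strain WBM1250) carry the same raga-1(wbm40) allele and wbmIs83, in which the rab-3 promoter drives 3xflag-tagged TIR1 in neurons. N2 animals are the wild type (WT), with neither the degron nor TIR1. Each strain was kept on plates with 0.15 mM auxin from day 1 of adulthood (auxin) or on plates with ethanol, in which the auxin was dissolved (no auxin). Per the study's methods, each replicate had its own collection day and its own thaw of worms, so the spread between replicates includes that between days. RAGA-1 is a Rag GTPase that activates the growth-promoting kinase complex mTORC1, and TIR1 with auxin directs a degron-tagged protein to the proteasome. The design asks how RNA levels respond when RAGA-1 is removed from somatic tissues or from neurons of adults, beside auxin itself in WT. The paper reports that somatic TIR1 lowered the fluorescence of tagged RAGA-1 even without auxin, which it reads as low-level degradation. The Somatic no auxin group may thus be partly depleted already.

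Chaperones bind unfolded or partly folded proteins and help them to fold, to be refolded or to be handed on for degradation. HSP70 proteins do this in cycles of ATP hydrolysis, J proteins bring clients to HSP70 and stimulate its ATPase, and HSP110 proteins act as nucleotide exchange factors, while HSP90 acts on a later set of clients such as kinases and receptors. The chaperonins enclose a client in a chamber, and small heat shock proteins hold unfolded proteins without using ATP. In worms, hsp-4 is the standard reporter of the ER unfolded protein response, hsp-6 and hsp-60 are those of the mitochondrial unfolded protein response, and the hsp-16 genes and hsp-70 are nearly silent until heat or another stress switches them on through HSF-1.

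The libraries held 16982857 to 41671106 reads, recovered from the deposited values. The degron acts on protein, so raga-1 RNA is no check of the depletion. It separated both AID strains from WT, but not the AID strains from each other. Its normalized counts were 1412 to 1628 in Somatic auxin and 1646 to 1741 in Somatic no auxin libraries. They were 1552 to 1655 in Neuronal auxin and 1614 to 1747 in Neuronal no auxin libraries. In WT they were 2777 to 2921 with auxin and 2673 to 3025 without. Whole animals were measured, so fewer cells of a type and less RNA per cell cannot be told apart. Some tissue markers moved after somatic AID. The summed level of 7 germline and oocyte markers was 141939 to 152634 normalized counts in Somatic auxin, against 164013 to 169496 in Somatic no auxin libraries, and 6 of the 7 were lower at the threshold used below. The summed level of 5 intestinal markers, vitellogenin genes among them, was 2633376 to 2866078 in Somatic auxin, against 1233530 to 1512840 in Somatic no auxin libraries, and 3 of 5 were higher. All 3 pharyngeal markers, 3 of 4 body wall muscle markers and 4 of 6 neuronal markers were also higher, with 1 muscle and 1 neuronal marker lower. Of 5 tested early embryo markers 2 were higher, and of 3 tested epidermal markers 1 was higher. Among 3 sperm markers, msp-3 and msp-10 were at 0 in every Somatic library with and without auxin. The part of these shifts in the chaperone results was not tested.

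Chaperone transcripts made up 1.36% to 1.62% of all normalized counts in a library. The values deposited by the authors, gene counts divided by 1 size factor per library, are called normalized counts here, and levels of different genes are compared per kb of exon. hsp-1, the constitutive cytosolic HSP70, had the highest mean level over the 24 libraries, 40699.7 normalized counts per kb, followed by hsp-90 with 35559 per kb. These 2 genes alone took 38.8% to 43.6% of the chaperone counts in each library. The mitochondrial HSP70 hsp-6 came next with 7355 per kb, then the chaperonin subunit cct-5 with 6851 per kb and the ER HSP70 hsp-4 with 5752 per kb. The 8 chaperonin subunits, which assemble in equal numbers into a double ring, lay close together, between 3334 (cct-3) and 6851 per kb. The 23 further J proteins ranged from 154 (dnj-24) to 4425 per kb (dnj-19). They are the dnj genes not listed here under the ER or mitochondria, and their own location was not examined. At the low end, hsp-12.1, hsp-12.3 and hsp-12.6 stood at 18.8, 15.8 and 14.2 per kb, and hsp-16.1 was listed at 0 in all 24 libraries. Near-identical hsp-16 copies share reads, and how the counting split them is uncertain. The members also differed in how steady they were: the pooled SD within groups on the log2 scale was 0.03 to 1.31 with a median of 0.08, under 0.2 in 47 genes and at least 0.5 in 7.

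**Figure D1:**
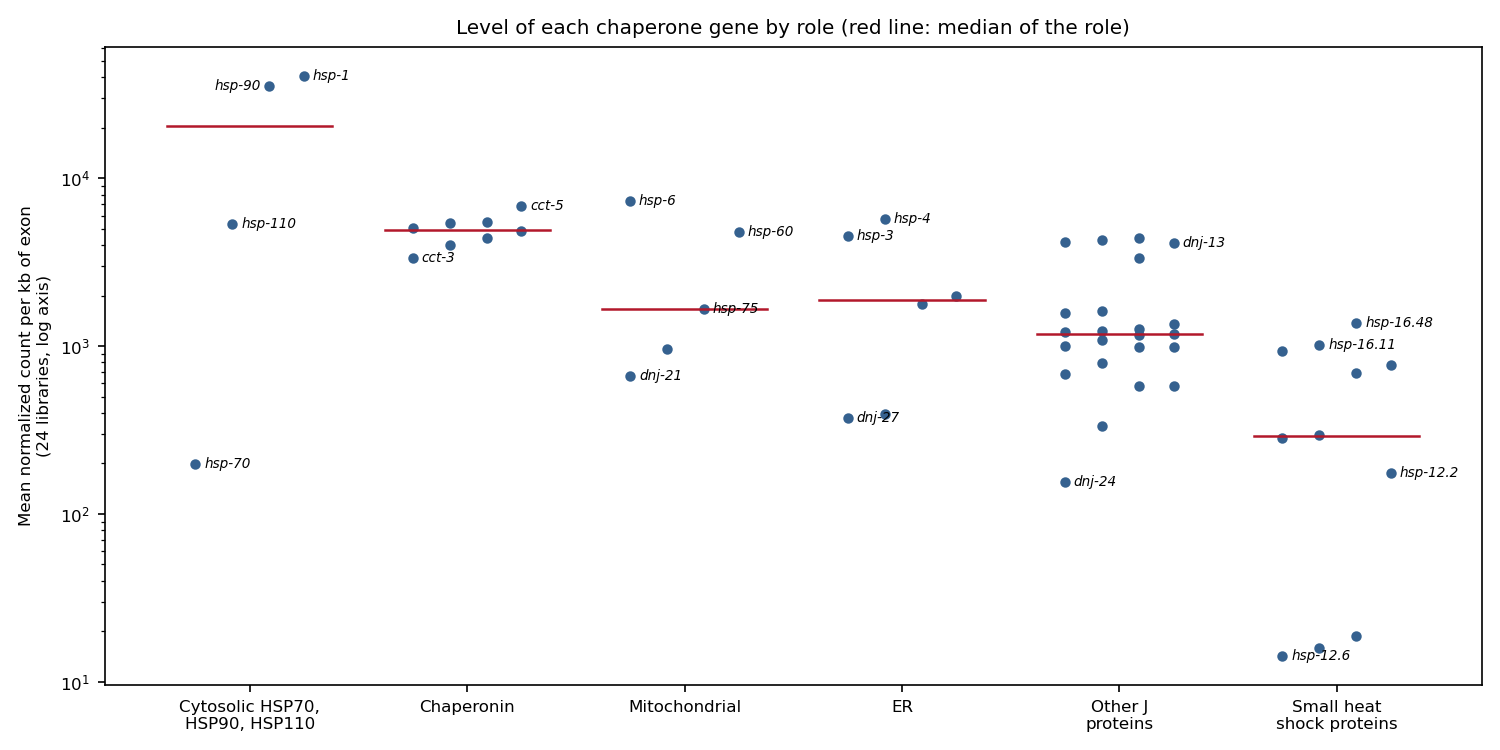
Mean normalized count per kb of exon over the 24 libraries for each chaperone gene (points, log axis), by role, with the median of each role as a red line. hsp-1 and hsp-90 lie above all others at 40699.7 and 35559 per kb and the 8 chaperonin subunits form a narrow band. hsp-16.1, at 0, is not drawn and counts in the median of its role.

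After somatic AID of RAGA-1, 6 chaperone genes rose and 16 fell among the 57 that were tested. A gene was tested if 4 or more libraries held 10 or more of its normalized counts, which left out hsp-16.1. limma was fitted to log2 of the normalized count plus 1 over all 13150 such genes, fold changes are on that scale, and the threshold was an adjusted p (Benjamini-Hochberg) of 0.01. The shares were 10.5% higher and 28.1% lower, beside 16.0% higher and 19.6% lower over all genes tested, and the median log2 fold change was -0.07 for the chaperones and 0.01 for all genes. Most chaperones are well expressed. Where only genes averaging 50 normalized counts or more were taken, 16 of 54 chaperones (29.6%) and 2531 of all 9617 genes (26.3%) were lower, and 6 chaperones and 1558 genes were higher, so that the share of lower chaperones lay near that of all genes of such levels. The changes were small: they were 9.35% to 41.8% in the genes that rose and -22.1% to -6.74% in those that fell. Under quantile normalization the split was 5 higher and 14 lower chaperones, and 1281 higher and 2444 lower of all genes in place of 2105 and 2575. In all 22 called genes, 6 higher and 16 lower, the 4 auxin libraries did not overlap the 4 no-auxin libraries. These genes were picked by their p on the same libraries, so little else was possible. Outside the call, 2 lower genes of the 57, dnj-4 and cct-7, did not overlap either. Of all genes tested, called or not, 17.2% did not overlap in the higher and 20.5% in the lower direction. Chaperones took 1.36% to 1.45% of all normalized counts in Somatic auxin, against 1.53% to 1.59% in Somatic no auxin libraries, which did not overlap. Their summed normalized counts, 389799 to 414049 with auxin and 407196 to 422328 without, did overlap, while the total over all genes, which exceeded that of the no-auxin libraries in every auxin library, was 27504818 to 29372493 with auxin and 25858875 to 26960939 without.

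**Figure D2:**
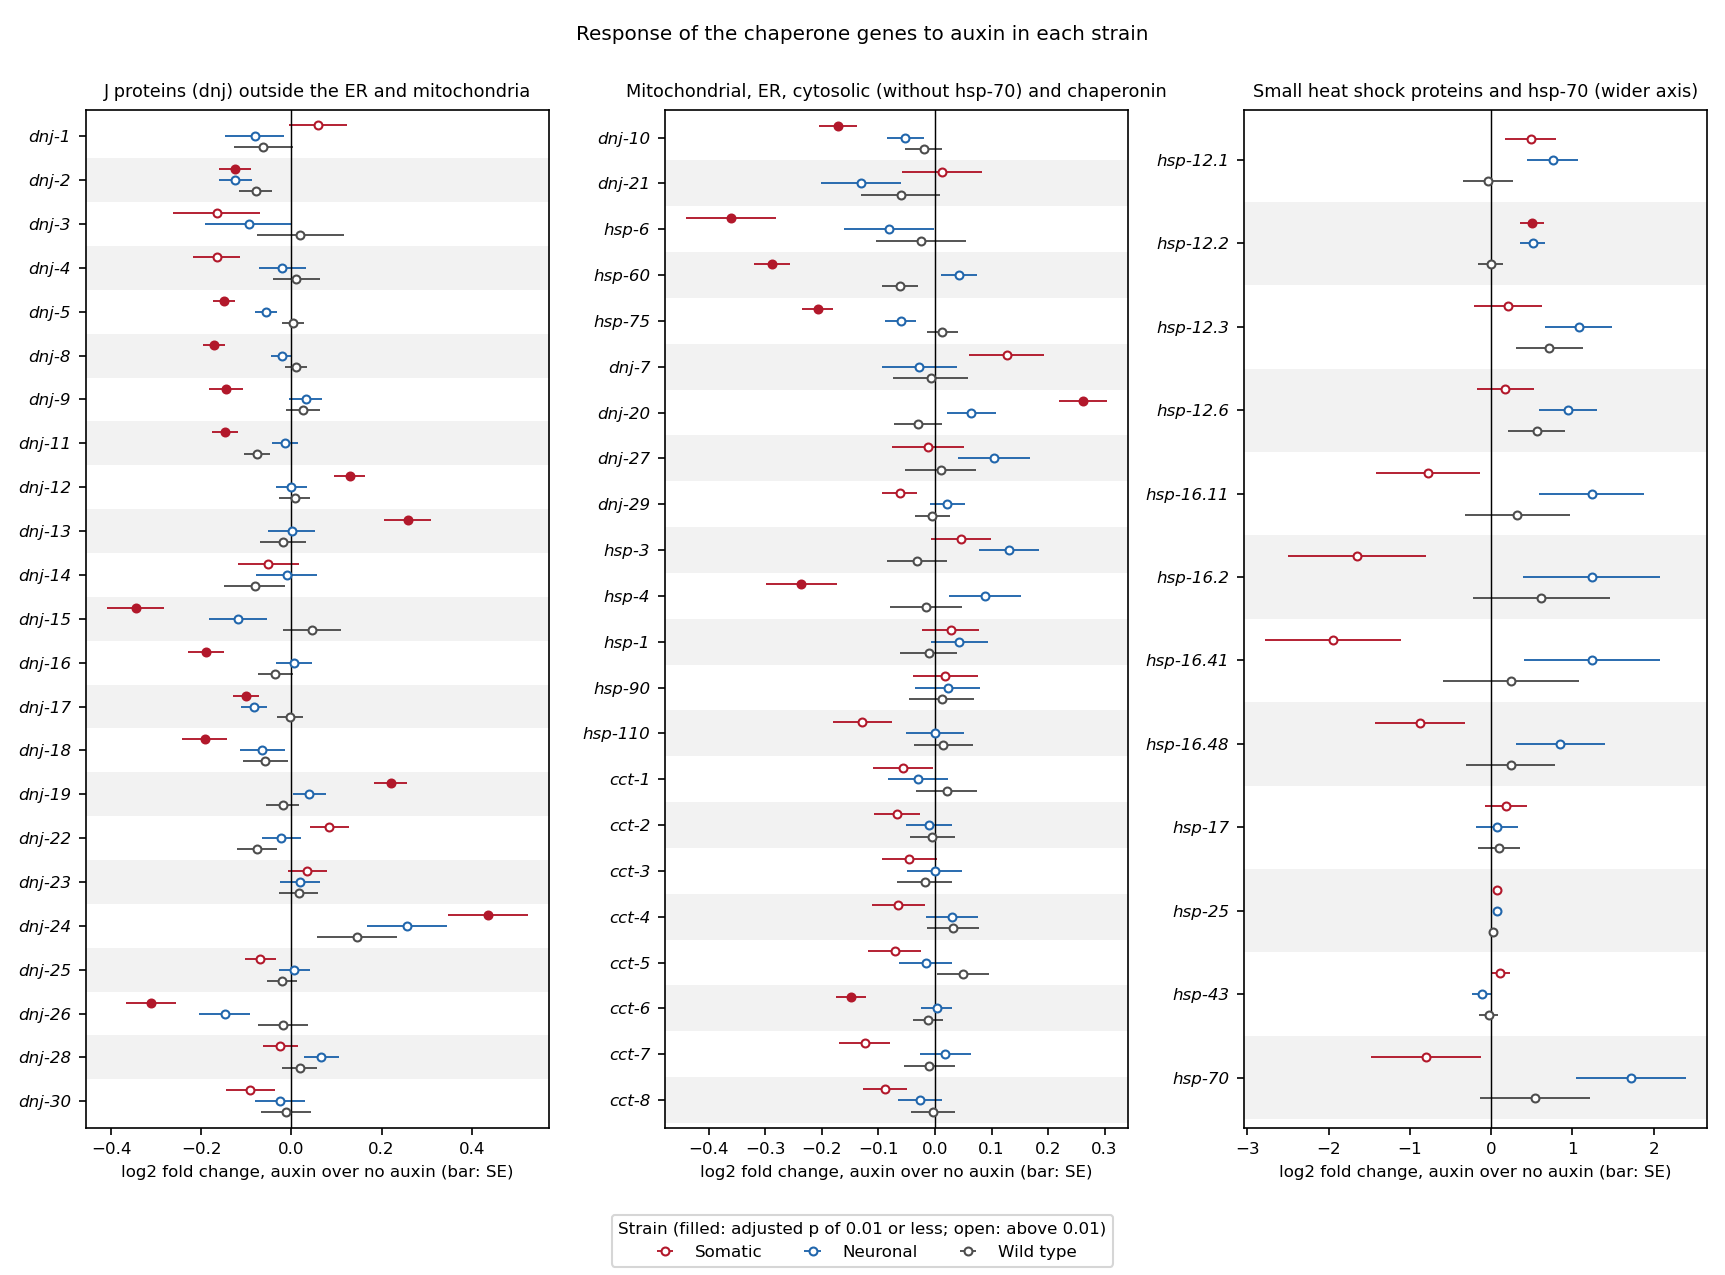
Log2 fold change of auxin over no auxin with its SE for the 57 tested chaperone genes in animals of the Somatic and Neuronal AID strains and the wild type, by role; filled points have a limma adjusted p of 0.01 or less. All 22 filled points, 6 to the right of 0 and 16 to the left, belong to RAGA-1::AID Somatic, and the small heat shock proteins and hsp-70 are drawn on a wider axis, where the hsp-16 genes and hsp-70 have SEs of 0.55 to 0.84.

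Of the 5 mitochondrial chaperones, hsp-60, hsp-6, hsp-75 and dnj-10 fell after somatic AID, and dnj-21 was not called. Over all genes tested 19.6% were lower, and 26.3% of those averaging 50 normalized counts or more. hsp-60, the chaperonin of the mitochondrial matrix, at III:1619742-1625803, had 8707, 8819, 9108 and 8441 normalized counts in Somatic auxin, against 10957, 10452, 11108 and 10336 in Somatic no auxin libraries. All 4 auxin libraries lay below every one of the other 20 libraries in the study, whose lowest was 9714. It fell by 18.1% (log2 fold change -0.29 ± 0.03 (SE), adjusted p = 3.05e-07). hsp-6, the mitochondrial HSP70, which also pulls proteins in through the import channel, at V:4824124-4826760, had 13894, 16699, 14884 and 12971 normalized counts with auxin, against 18117, 20866, 19034 and 16937 without. In both groups replicate 2 was the highest and replicate 4 the lowest, and the highest auxin library lay just below the lowest no-auxin library. hsp-6 fell by 22.1%, the largest fall among the called members (log2 fold change -0.36 ± 0.08 (SE), adjusted p = 0.000799).

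hsp-75, the mitochondrial HSP90 known as TRAP1 in mammals, had 3135, 3240.0, 3205 and 3107 normalized counts in Somatic auxin, against 3737, 3561, 3569.9 and 3787 in Somatic no auxin libraries. Its groups were tight, with SDs of 61.3 and 116, and it fell by 13.4% (log2 fold change -0.21 ± 0.03 (SE), adjusted p = 2.91e-06). dnj-10, related to the mitochondrial J protein Tid1 (DNAJA3) of mammals, averaged 1488 ± 40.7 with auxin and 1677 ± 84.6 without (SD, n = 4 each), with an adjusted p of 0.000218 in limma. The exception was dnj-21, related to the J protein of the import motor (Pam18), with 274 ± 9.88 and 271 ± 18.3 normalized counts and a log2 fold change of 0.01 ± 0.07 (SE). In the same libraries the germline and oocyte markers were lower, as given above, and the part of that in these falls was not tested.

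**Figure D3:**
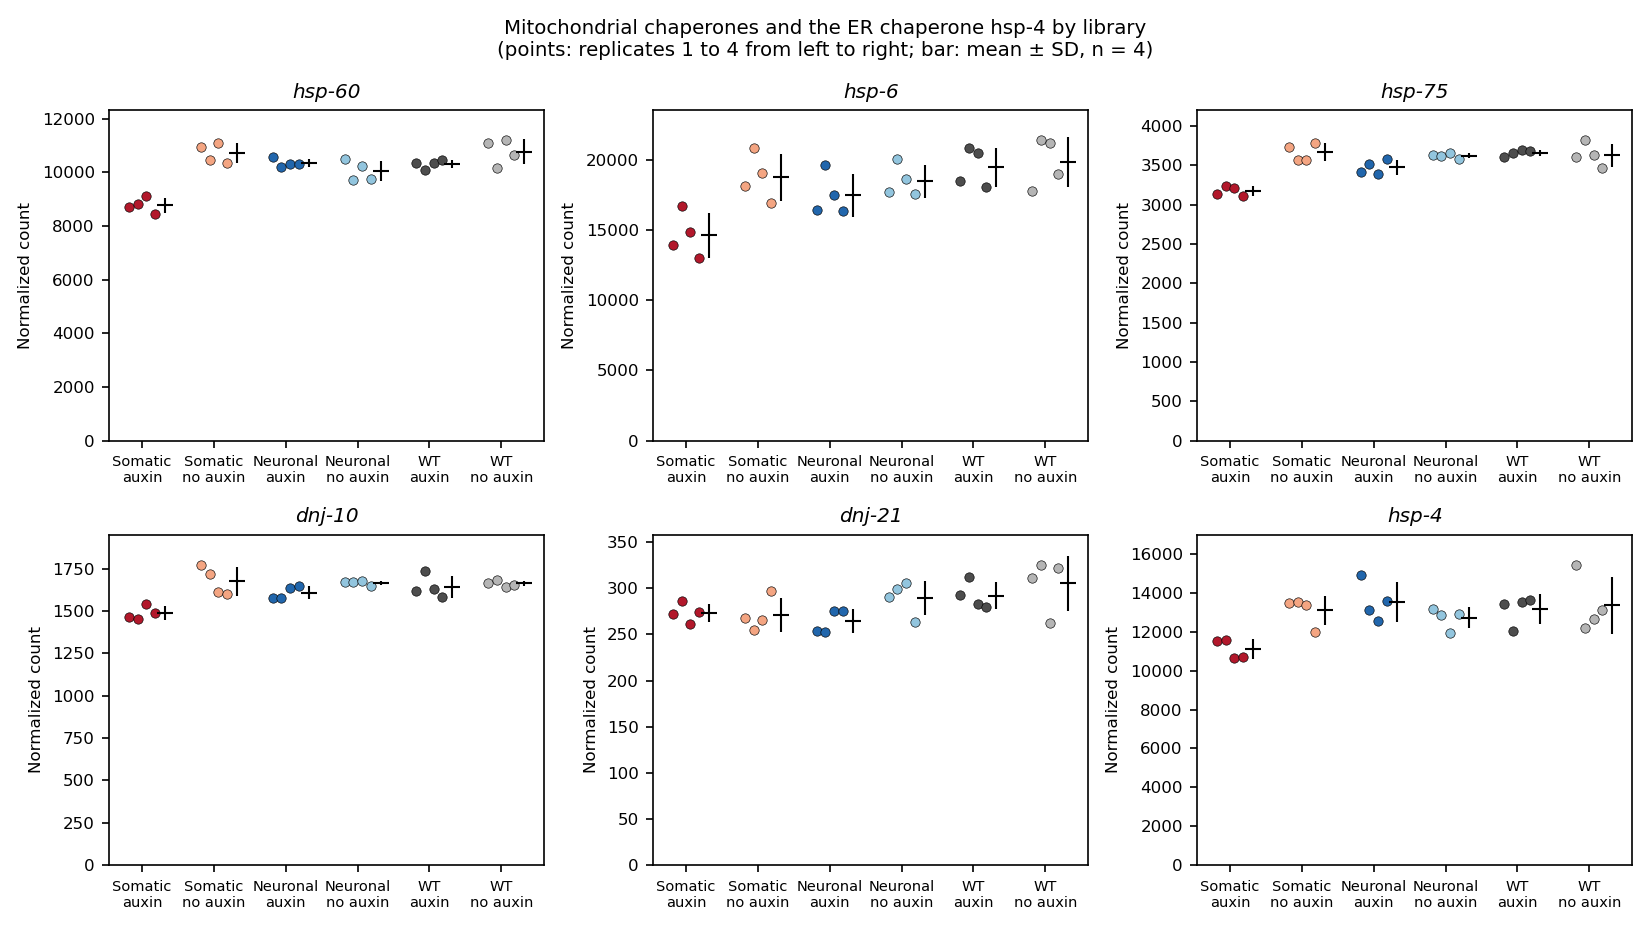
Normalized counts in each library (points) with mean ± SD (n = 4) for the 5 mitochondrial chaperones and the ER chaperone hsp-4, in the 6 groups; axes start at 0. The 4 Somatic auxin libraries of hsp-60 (8441 to 9108) lie below those of every other group, whereas those of dnj-21 overlap Somatic no auxin.

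The ER genes split. hsp-4, the inducible BiP, at II:7350112-7352645, had 11545, 11572, 10642 and 10727 normalized counts in Somatic auxin, against 13515, 13535, 13372 and 12007 in Somatic no auxin libraries. Its groups did not overlap, replicate 4 was the lowest of the no-auxin libraries, and hsp-4 fell by 15.1% (log2 fold change -0.24 ± 0.06 (SE), adjusted p = 0.00399). The call was lost when any of 5 of the 8 libraries was left out: Somatic no auxin replicate 1, 2 or 3, or Somatic auxin replicate 3 or 4. dnj-20, the worm relative of the secretory pathway J protein ERdj3 (DNAJB11), moved the other way, with 4638, 4363, 4497 and 4544 with auxin, against 3635, 3916, 3742 and 3762 without. It rose by 19.8% (log2 fold change 0.26 ± 0.04 (SE), adjusted p = 3.61e-05), and its 4 auxin libraries were the highest 4 of the 24. hsp-3, the other BiP, had a log2 fold change of 0.05 ± 0.05 (SE), dnj-7, related to the PERK inhibitor p58IPK, 0.13 ± 0.07, dnj-27, related to the disulfide reductase ERdj5, -0.01 ± 0.06, and dnj-29, related to the translocon subunit SEC63, -0.06 ± 0.03. None of these 4 passed the threshold.

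Of the other 23 J proteins, 4 rose and 10 fell, and over all 29 dnj genes the count was 5 and 11. Over all genes tested 16.0% were higher and 19.6% lower, and of the genes averaging 50 normalized counts or more 26.3% were lower. dnj-13, the type II J protein akin to mammalian DNAJB1, which works with HSP70 and HSP110 in taking apart protein aggregates, had 6861, 7008, 6507 and 6257 normalized counts in Somatic auxin, against 6122, 5376, 5224 and 5564 in Somatic no auxin libraries. The lowest auxin library stood above the highest no-auxin library, and the rise was 19.6% (log2 fold change 0.26 ± 0.05 (SE), adjusted p = 0.000324). dnj-19, a type I J protein of the DNAJA class, had 7929, 7504, 7499 and 7635 with auxin, against 6720.1, 6199, 6326 and 7012 without (log2 fold change 0.22 ± 0.04 (SE), adjusted p = 4.06e-05), and its groups did not overlap. dnj-12, of the same class, averaged 7761 ± 155 and 7098 ± 163 (SD, n = 4 each; limma adjusted p = 0.00388). The largest rise among J proteins was that of dnj-24, the one with the lowest level per kb, with 293, 298, 263 and 279 with auxin, against 232, 201, 214 and 191 without (log2 fold change 0.44 ± 0.09 (SE), adjusted p = 0.000373). Its Somatic groups did not overlap, but Neuronal auxin libraries reached 282, within the range of Somatic auxin.

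Among the J proteins that fell, dnj-15 had 629.6, 673, 657 and 697 normalized counts in Somatic auxin, against 797, 890.4, 812 and 882 in Somatic no auxin libraries. It fell by 21.3% (log2 fold change -0.35 ± 0.06 (SE), adjusted p = 0.000141), and all 4 auxin libraries were below the other 20. dnj-26 had 747, 769, 828 and 703 with auxin, against 968, 937, 927 and 948 without. It fell by 19.5% (log2 fold change -0.31 ± 0.06 (SE), adjusted p = 9.39e-05). The no-auxin libraries of dnj-26 lay within an SD of 17.7, against 52.2 with auxin. dnj-16 averaged 1692 ± 68.3 with auxin and 1929.7 ± 51.3 without, and dnj-18 752 ± 24.2 and 860.1 ± 51.3 (SD, n = 4 each), with limma adjusted p of 0.000473 and 0.00299. The other 6 that fell were dnj-2, dnj-5, dnj-8, dnj-9, dnj-11 and dnj-17, with changes of -11.2% to -6.74%. dnj-8 and dnj-5 had the lowest adjusted p of these, 6.16e-06 and 3.08e-05 in limma, with SEs of 0.02 on the log2 scale for each. Compared with the WT response, given below, dnj-5 and dnj-8 differed at the threshold, and dnj-2, dnj-9, dnj-11 and dnj-17 did not. dnj-2 averaged 1185 with auxin and 1292 without in Somatic, 1197 and 1305 in Neuronal and 1251 and 1322 in WT libraries. dnj-17 averaged 1792 and 1921 in Somatic, 1803 and 1911 in Neuronal and 1842 and 1847 in WT libraries. dnj-9 averaged 2004 and 2218 in Somatic, 2117 and 2070 in Neuronal and 2060 and 2023 in WT libraries. dnj-11 is related to the ribosome-bound J protein zuotin (DNAJC2). The calls of dnj-2 and dnj-17 held least often, each being lost in 7 of 12 other settings and when any of 6 of the 8 libraries was left out, which for dnj-2 were all but replicates 1 and 4 of Somatic auxin and for dnj-17 all but Somatic no auxin replicate 2 and Somatic auxin replicate 3. dnj-12 lost its call without Somatic no auxin replicate 2 or 3 or Somatic auxin replicate 1, dnj-9 without replicate 1 of either group, and dnj-18 without Somatic no auxin replicate 1 or Somatic auxin replicate 4. The 9 J proteins of this class that were not called lay between -0.17 (dnj-4) and 0.08 (dnj-22) on the log2 scale. dnj-4, just outside the threshold with a limma adjusted p of 0.012, averaged 537 ± 15.2 with auxin and 603 ± 24.5 without (SD, n = 4 each). dnj-14, the synaptic vesicle J protein known as cysteine string protein, had a log2 fold change of -0.05 ± 0.07 (SE), and dnj-25, the auxilin that uncoats clathrin vesicles, -0.07 ± 0.03.

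**Figure D4:**
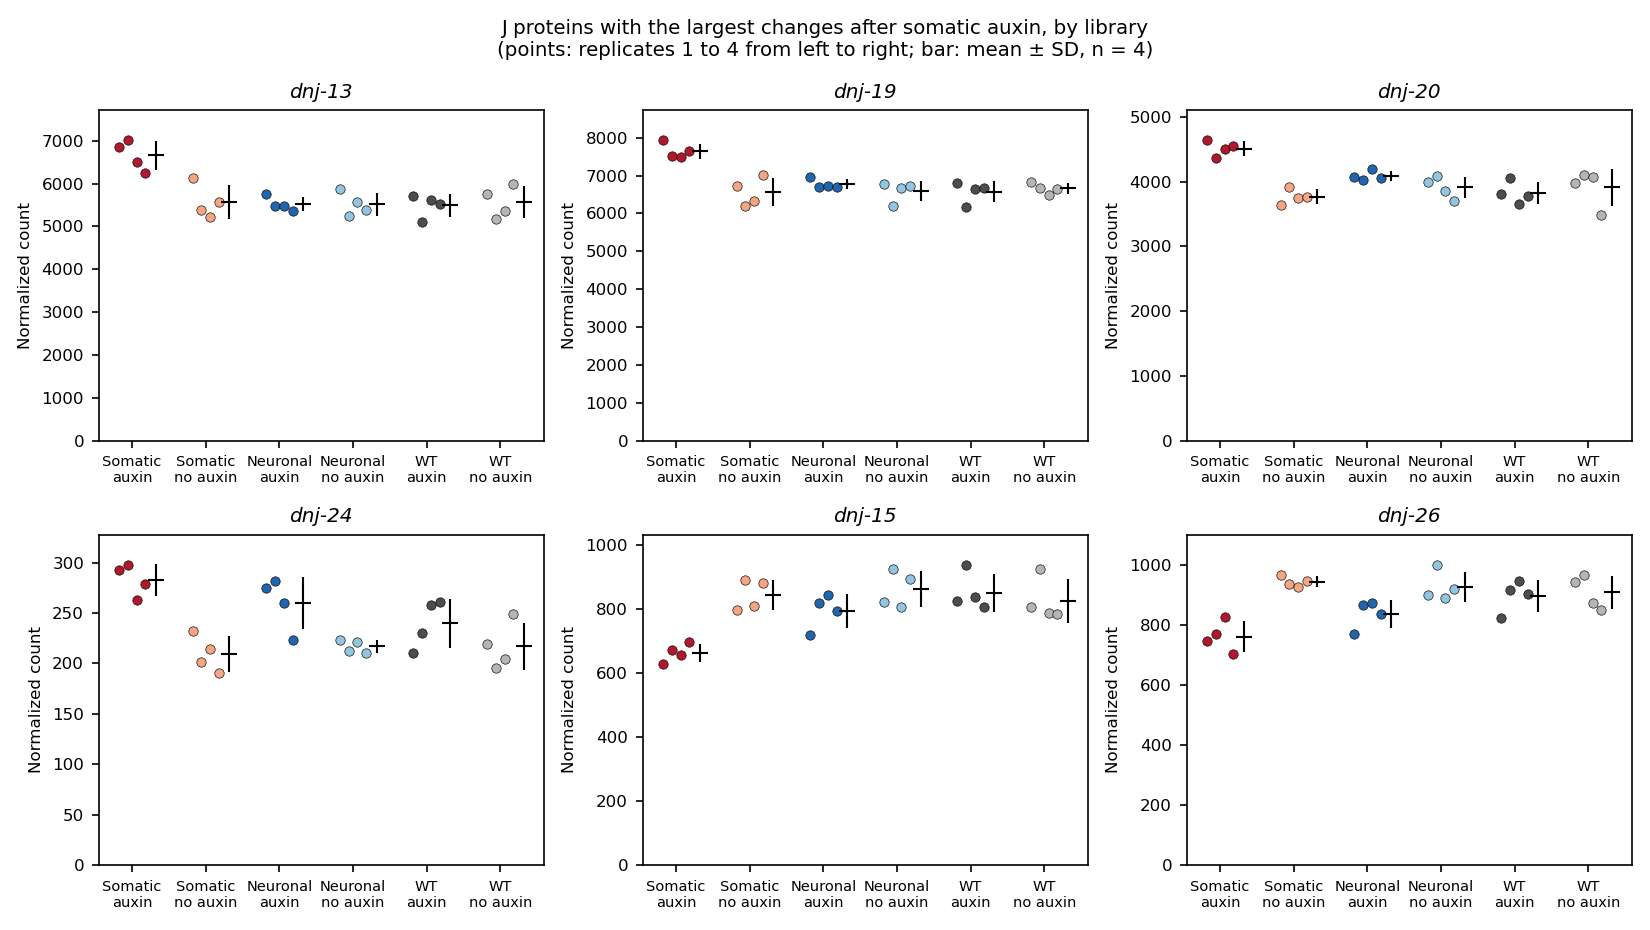
Normalized counts in each library (points) with mean ± SD (n = 4) for 6 J proteins in the 6 groups; axes start at 0. For dnj-13, dnj-19, dnj-20 and dnj-24 the 4 Somatic auxin libraries lie above the 4 Somatic no auxin libraries, and for dnj-15 and dnj-26 they lie below them.

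The most abundant chaperones shifted little. hsp-1 averaged 86670.4 ± 2112 normalized counts in Somatic auxin and 85013 ± 1866 in Somatic no auxin libraries (SD, n = 4 each), a log2 fold change of 0.03 ± 0.05 (SE). hsp-90 averaged 87141 ± 2818 with auxin and 86072 ± 3525 without, a log2 fold change of 0.02 ± 0.06, and it passed the threshold as higher only under quantile normalization. hsp-110 averaged 13718 ± 811 and 14988 ± 649, a log2 fold change of -0.13 ± 0.05 with a limma adjusted p of 0.0451. All 8 chaperonin subunits had negative log2 fold changes, between -0.15 and -0.05, but only cct-6 was called. That is 12.5% lower, beside 19.6% of all genes tested and 26.3% of those averaging 50 normalized counts or more. The median log2 fold change of the latter genes was -0.04. cct-6 had 9671, 9906, 9663 and 9178 with auxin, against 10427, 10483, 10998 and 10681 without. cct-6 fell by 9.80% (log2 fold change -0.15 ± 0.03 (SE), adjusted p = 0.000111). cct-7 averaged 8658 ± 225 with auxin and 9438 ± 255 without (SD, n = 4 each), with no overlap, a log2 fold change of -0.12 ± 0.05 (SE) and a limma adjusted p of 0.027. The 6 subunits left, cct-1, cct-2, cct-3, cct-4, cct-5 and cct-8, had SEs of 0.04 to 0.05 beside log2 fold changes of -0.09 to -0.05, and their groups overlapped. cct-1 had -0.06 ± 0.05 and cct-8 -0.09 ± 0.04 (SE). For RAGA-1::AID Somatic over WT, both without auxin, the log2 fold changes of all 8 subunits were 0.01 to 0.09, and none passed the threshold.

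Among the small heat shock proteins, hsp-12.2 alone passed the threshold, as higher. It had 126, 104.3, 137 and 133 normalized counts in Somatic auxin, against 100.01, 84.0, 76.5 and 90.6 in Somatic no auxin libraries (log2 fold change 0.50 ± 0.15 (SE), adjusted p = 0.00875). The groups did not overlap, but the call was lost when any of 6 of the 8 libraries was left out (Somatic no auxin replicate 2, 3 or 4, or Somatic auxin replicate 1, 3 or 4) and in 3 of 12 other settings. hsp-25 averaged 963 ± 27.9 with auxin and 915 ± 28.9 without, hsp-43 1009.5 ± 36.1 and 949 ± 216, and hsp-17 604 ± 146 and 522 ± 65.8 (SD, n = 4 each). None of these 3 was called. hsp-12.1, hsp-12.3 and hsp-12.6, a gene known in worms as a target of the transcription factor DAF-16, held 2.39 to 28.6 normalized counts in all libraries, and none of the 3 was called.

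The stress-inducible genes hsp-16.2, hsp-16.41, hsp-16.11, hsp-16.48 and hsp-70 varied more between replicates than any other member. hsp-16.2 had 58.8, 345, 80.9 and 29.1 normalized counts in Somatic auxin, against 111, 1041, 555 and 75.7 in Somatic no auxin libraries. The groups overlapped widely, and replicate 2 was the highest in both. hsp-16.41, its divergent neighbour 220 bases away at V:1805178-1805875, followed it closely, with 63.8, 318, 66.2 and 31.9 with auxin, against 127, 1440.4, 564 and 96.0 without. Over all 24 libraries hsp-16.2 spanned 24.4 to 1041 normalized counts, a 42.7-fold range, and hsp-16.41 spanned 23.5 to 1440, a 61.3-fold range. The ratio of the 2 genes stayed between 0.667 and 1.44, and that of hsp-16.11 to hsp-16.48, on the same stretch of chromosome V, between 0.529 and 0.992. The ratio of hsp-16.11 to hsp-16.2, which lie in different places on the chromosome, ranged from 1.84 to 6.10. The highest library of all was Somatic no auxin replicate 2 in each of the 4 genes, and the lowest was Neuronal no auxin replicate 3.

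hsp-70 had 175, 857, 176 and 79.0 normalized counts in Somatic auxin, against 459, 938, 469.7 and 97.4 in Somatic no auxin libraries. It spanned 79.0 to 1135 normalized counts over the 24 libraries and its ratio to hsp-16.2 moved more, between 0.847 and 8.28. The ratio was lowest in Somatic no auxin replicates 2, 3 and 4, at 0.902, 0.847 and 1.29. None of the 5 inducible genes was called after somatic AID: the log2 fold changes were -1.65 ± 0.84 for hsp-16.2, -1.95 ± 0.84 for hsp-16.41, -0.78 ± 0.64 for hsp-16.11, -0.88 ± 0.55 for hsp-16.48 and -0.81 ± 0.68 for hsp-70 (SE), with the lowest limma adjusted p at 0.0588. Without Somatic no auxin replicate 2, the library highest in the 4 hsp-16 genes, the log2 fold changes were -0.99 for hsp-16.2, -1.22 for hsp-16.41 and -0.37 for hsp-70. Without Somatic auxin replicate 2 they were -2.33, -2.60 and -1.47, with limma adjusted p of 0.0286, 0.0153 and 0.0641.

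**Figure D5:**
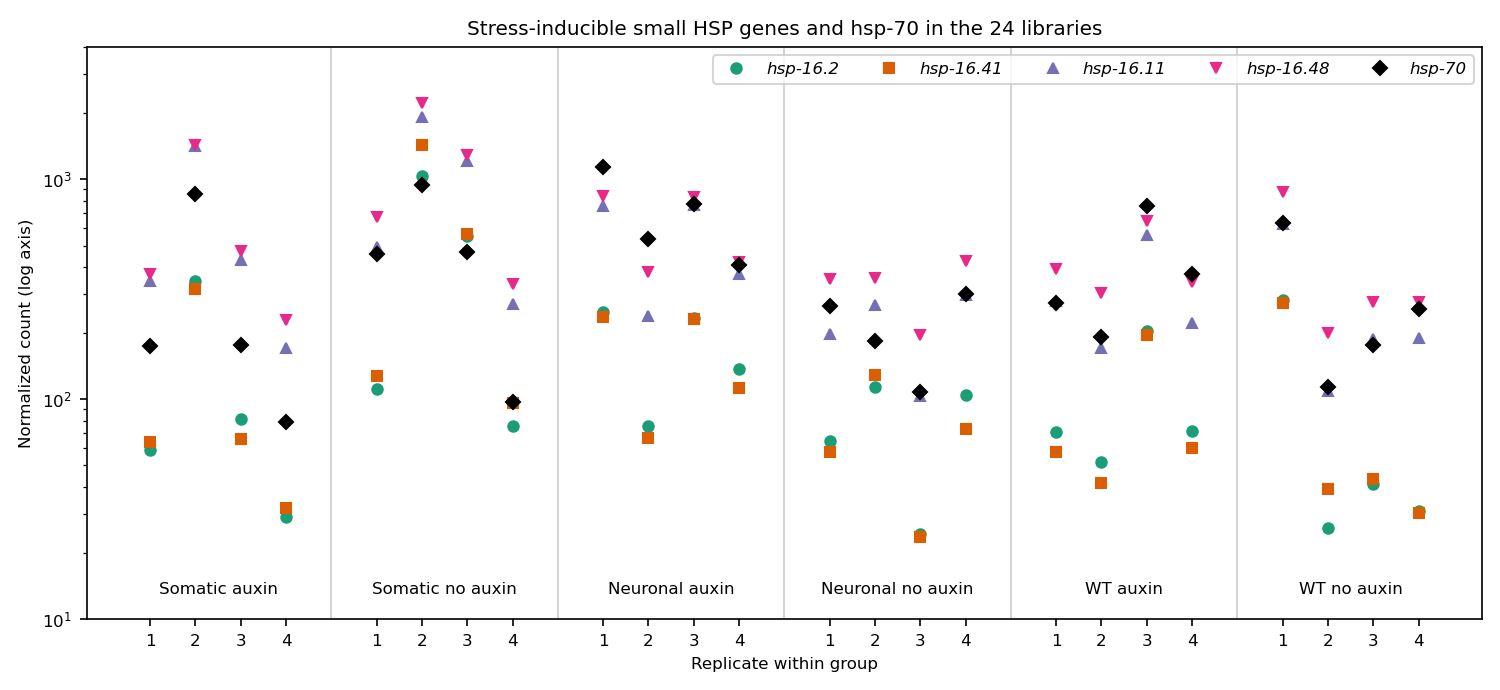
Normalized counts (log axis) of the 4 measured hsp-16 genes and hsp-70 in each of the 24 libraries, by group and replicate. Libraries of 1 group lie far apart, and the highest hsp-16 values are in Somatic no auxin replicate 2 (hsp-16.48 at 2236).

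After neuronal AID no chaperone gene passed the threshold with limma, edgeR or DESeq2, while 0.441% of all genes were called with limma. Over all genes edgeR called 61 higher and 16 lower of 13150, and DESeq2 176 higher and 44 lower of 20601. At such low shares the lack of a call among 57 genes says little about chaperones. 12 members (21.1%) had an unadjusted p under 0.05, beside 14.5% of all genes tested, and the lowest adjusted p was 0.0851 for dnj-2 in limma. The largest positive fold changes were those of the inducible genes and of the hsp-12 genes, which code for the shortest heat shock proteins. hsp-70 had 1135, 538, 770.5 and 406 normalized counts in Neuronal auxin, against 266, 184, 108 and 299.7 in Neuronal no auxin libraries, and the groups did not overlap. Its log2 fold change was 1.72 ± 0.68 (SE), with a limma adjusted p of 0.223. hsp-12.2 had 99.7, 98.8, 133 and 94.8 with auxin, against 74.5, 68.5, 86.2 and 67.4 without, again with no overlap, and a log2 fold change of 0.51 ± 0.15 beside 0.50 ± 0.15 after somatic AID. hsp-12.6 had 12.01, 17.1, 20.7 and 14.9 with auxin, against 8.01, 6.63, 7.83 and 8.65 without, a log2 fold change of 0.95 ± 0.35 at counts near the filter. hsp-16.2, hsp-16.41, hsp-16.11 and hsp-16.48 had log2 fold changes of 1.24, 1.24, 1.24 and 0.85 with SEs of 0.55 to 0.84, and their groups overlapped.

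In the neuronal comparison, the groups did not overlap in 4 members that were higher with auxin, dnj-24, hsp-12.2, hsp-12.6 and hsp-70, and in 6 that were lower, dnj-2, dnj-5, dnj-10, dnj-17, dnj-26 and hsp-75. Over all genes tested this held for 5.96% in the higher and 4.81% in the lower direction. dnj-26 averaged 838 ± 46.8 normalized counts in Neuronal auxin and 929 ± 50.3 in Neuronal no auxin libraries (SD, n = 4 each), a log2 fold change of -0.15 ± 0.06 (SE). hsp-75 averaged 3472 ± 90.8 and 3620.1 ± 30.2, a log2 fold change of -0.06 ± 0.03. For the reporters of protein stress the log2 fold changes were 0.09 ± 0.06 for hsp-4, -0.08 ± 0.08 for hsp-6 and 0.04 ± 0.03 for hsp-60 (SE), none of which passed the threshold. In the same libraries the summed germline and oocyte markers were at 157593 to 163045 normalized counts in Neuronal auxin, against 165284 to 166160 in Neuronal no auxin libraries, and the summed pharyngeal markers at 1343 to 1783, against 1024 to 1373. Their part in these values was not tested.

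In WT animals auxin gave no called chaperone, nor any called gene with limma (0.0% of all genes). In WT 2 members, dnj-11 and dnj-2, had an unadjusted p under 0.05 (3.51%, beside 2.30% of all genes), edgeR and DESeq2 called no member, and the lowest limma adjusted p was 1.00. dnj-11 was the 1 member whose groups did not overlap, being lower with auxin, where over all genes 0.951% were higher and 0.776% lower without overlap. The log2 fold change was -0.06 ± 0.03 (SE) for hsp-60, -0.03 ± 0.08 for hsp-6, -0.02 ± 0.06 for hsp-4 and 0.54 ± 0.68 for hsp-70. Without auxin, RAGA-1::AID Somatic against WT gave no called member with limma, edgeR or DESeq2, beside 0.213% of all genes in limma, with 11 members (19.3%, beside 9.77% of all genes) at an unadjusted p under 0.05 and a lowest adjusted p of 0.167 for dnj-9. The 4 hsp-16 genes were among the 11, with log2 fold changes of 2.34 ± 0.84 for hsp-16.41, 2.23 ± 0.84 for hsp-16.2, 1.74 ± 0.64 for hsp-16.11 and 1.39 ± 0.55 for hsp-16.48 (SE). This comparison shares the Somatic no auxin libraries with the one after somatic AID, where the same genes had negative values. RAGA-1::AID Neuronal against WT without auxin gave no called member with any of the 3 tools, beside 0.0076% of all genes, and 2 members at an unadjusted p under 0.05 (3.51%, beside 4.97% of all genes), with a lowest limma adjusted p of 0.967.

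The responses of the strains were then compared directly. The somatic response was more negative than the neuronal one in 4 members and more positive in none, where over all genes 6.02% were lower and 5.22% higher. hsp-60 differed most clearly, with a difference of -0.33 ± 0.04 (SE) on the log2 scale and a limma adjusted p of 3.90e-05. Its log2 fold change was -0.29 after somatic and 0.04 after neuronal AID. dnj-8 (-0.15 ± 0.03, adjusted p = 0.00343), cct-6 (-0.15 ± 0.04, adjusted p = 0.00682) and hsp-75 (-0.15 ± 0.04, adjusted p = 0.00915) also passed in limma. The next members, which did not reach the threshold, were hsp-4 with -0.32 ± 0.09 and an adjusted p of 0.0124, dnj-19 with 0.18 ± 0.05 and 0.0147, and dnj-13 with 0.26 ± 0.07 and 0.0147. The count of 4 changed with the fit: it was 2 with edgeR and 9 with DESeq2, and 10 with a replicate block in limma. hsp-60 was called in every one of the 12 settings with all 4 replicates and in every fit that left out 1 library. Leaving out Neuronal no auxin replicate 1 or 4, or Somatic auxin replicate 1 or 4, gave 2 members, hsp-60 and dnj-8.

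Against the WT response, the somatic response was more negative in 7 members and more positive in 3, beside 9.67% and 7.11% of all genes. The 3 more positive ones were the J proteins dnj-20 (0.29 ± 0.06), dnj-13 (0.28 ± 0.07) and dnj-19 (0.24 ± 0.05). The 7 more negative ones were dnj-15 (-0.39 ± 0.09), dnj-26 (-0.29 ± 0.08), hsp-60 (-0.23 ± 0.04), hsp-75 (-0.22 ± 0.04), dnj-8 (-0.18 ± 0.03), dnj-5 (-0.15 ± 0.03) and cct-6 (-0.14 ± 0.04), each with its SE on the log2 scale and limma adjusted p of 0.000262 to 0.00982. hsp-6, with -0.34 ± 0.11 and a limma adjusted p of 0.0282, and hsp-4, with -0.22 ± 0.09 and 0.0676, were called in the somatic comparison but did not reach the threshold here. The same held for dnj-2, dnj-9, dnj-10, dnj-11, dnj-12, dnj-16, dnj-17, dnj-18, dnj-24 and hsp-12.2. Thus 22 members were called after somatic AID, and 10 of them differed from the WT response. With replicate number as a block, hsp-6 was called for this difference in both limma and edgeR, and hsp-4 in neither. The neuronal response did not differ from the WT response in any member at the threshold with limma, edgeR or DESeq2, beside 0.0152% of all genes, with 3 members at an unadjusted p under 0.05 (5.26%, beside 6.62% of all genes) and a lowest limma adjusted p of 0.696. The somatic-minus-neuronal and somatic-minus-WT differences share the Somatic libraries and are not separate evidence.

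Other genes of protein folding, taken as lists by function, were also counted after somatic AID, beside the 16.0% higher and 19.6% lower of all genes. Of 4 regulators of the heat shock response, none passed the threshold in limma and 1 had an unadjusted p under 0.05, while hsf-1, the transcription factor itself, had a log2 fold change of -0.04. Of 8 regulators of the mitochondrial unfolded protein response, 2 rose and 1 fell. atf-4, a transcription factor of the integrated stress response, averaged 923 ± 26.6 normalized counts in Somatic auxin and 681 ± 51.4 in Somatic no auxin libraries (SD, n = 4 each; log2 fold change 0.44, limma adjusted p = 2.34e-06). dve-1, a homeodomain factor of that response, had a log2 fold change of 0.57 and the histone methyltransferase gene met-2 one of -0.13. atfs-1, the factor that leads that response, had -0.10 and was not called. Of 5 mitochondrial proteases 4 fell and none rose, with spg-7 at -0.33, ymel-1 at -0.18 and lonp-1 at -0.15 on the log2 scale.

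Of 5 regulators of the ER unfolded protein response, 2 rose and 1 fell. The rises were those of atf-4, which is on both lists, and of xbp-1, with a log2 fold change of 0.33, and the fall was that of ire-1, the ER stress sensor that splices xbp-1 RNA, with -0.20. Of 11 tested ER folding factors 5 fell and none rose, including the disulfide isomerase genes pdi-1 (-0.20) and pdi-3 (-0.14) and calnexin, cnx-1 (-0.10). Of 12 cytosolic co-chaperones 1 rose and 4 fell. The rise was that of unc-23, a BAG protein of muscle (0.62), and the falls included chn-1, the ubiquitin ligase CHIP (-0.16), and sgt-1 (-0.11). Of 6 prefoldin subunits, which deliver clients to the chaperonin, pfd-2 fell (-0.18) and the other 5 were not called.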

How the data were processed

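Poly(A) RNA was sequenced strand-specifically from 24 whole-animal samples, 4 in each of 6 groups, and groups were taken from the sample labels. The authors quantified reads with Salmon 1.4.0 against WBcel235, summed transcripts to genes with tximport and divided the counts by 1 DESeq2 (1.34.0, R 4.1.2) size factor per library. They used STAR 2.7.0, FastQC 0.11.5 and MultiQC for quality control. Whether Salmon was run with strand options is not given in the sources used here. The deposited signal values are these normalized counts. Whole reads were recovered from their steps: 100% of values came out whole within 0.01 (largest deviation 0.000631), so depth was known at 16982857 to 41671106 reads per library. In Somatic auxin replicate 1 the step was near 1 (size factor 1.004), and its values also came out whole, with a largest deviation of 0.000274.

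Symbols came from the Ensembl release 115 annotation, which named 19793 of 21982 gene IDs. Chaperones were all IDs with an hsp, dnj or cct symbol and a number, and all of them are named or counted in the text. Values were given for landmark members whatever they did (hsp-1, hsp-90, hsp-110, hsp-70, hsp-3, hsp-4, hsp-6, hsp-60, hsp-16.2, hsp-16.41, hsp-12.6, hsp-25, hsp-43, dnj-13, dnj-14, dnj-20, dnj-27, cct-1 and cct-8), for any member called in the neuronal, WT or baseline comparisons, for the 8 largest rises and 8 largest falls after somatic AID among members averaging 50 normalized counts or more, for up to 10 members called between the somatic and neuronal responses, and for up to 3 called genes of each other list by adjusted p. Further members, atfs-1 and hsf-1 were chosen after their values were seen. Members and lists were chosen with earlier results of these data known. limma 3.58.1 (R 4.3.3, trend) was fitted to log2(normalized count + 1) with 1 mean per group over all 24 libraries, for 13150 genes with 10 or more normalized counts in 4 or more libraries. P-values were adjusted over all of them (Benjamini-Hochberg, threshold 0.01). Responses of 2 strains were compared as the difference of their auxin effects in the same fit. Alternatives were other pseudocounts, filters and scalings, edgeR 4.0.16 and DESeq2 1.42.0 on the recovered reads, and a replicate block. Others were fits of only the compared libraries, an adjusted p of 0.05, fits of replicate pairs alone and fits without each library. The scripts were tested on simulated data. Tables and plots used Python 3.11.15, numpy 2.4.6, pandas 2.3.3 and matplotlib 3.10.9.

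Same-numbered replicates were checked for shared deviations from their group means. The correlations were 0.08 to 0.24 in RAGA-1::AID Somatic, 0.09 to 0.34 in RAGA-1::AID Neuronal and 0.10 to 0.23 in WT. Libraries of different numbers had -0.17 to 0.05 in RAGA-1::AID Somatic, -0.25 to 0.14 in RAGA-1::AID Neuronal and -0.18 to 0.09 in WT. In each strain every auxin library correlated most with the no-auxin library of its own number. Over 0.1 lay 3 of 4 same-numbered pairs in each AID strain and 4 of 4 in WT. By this cut the numbers were taken as pairing in WT alone, where no member was called with or without the block. The AID strains may be paired too, and their counts with the block are given below.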

Additional observations from a re-analysis of the deposited data

Results flagged for a closer look

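Over the 30 named chaperones, 180 groups of 4 libraries were examined. In 18 of them a library's gap to its nearest neighbour exceeded Dixon's 95% critical value, taken as a share of the group's range. Chance alone gives about 1 in 20 where values are normally distributed and groups independent. Counts were taken without logs, and hsp-16.2 and hsp-16.41 stood apart in the same libraries, so that rate is only a rough guide here. 5 of the 18 were in Somatic auxin replicate 2: hsp-16.2 at 345 (the others 29.1 to 80.9), hsp-16.41 at 318 (31.9 to 66.2), hsp-70 at 857 (79.0 to 176), hsp-110 at 14922 (13155 to 13442) and hsp-90 at 91361 (85587 to 85953) normalized counts. WT auxin replicate 3 stood apart in hsp-16.2 with 205 (51.9 to 71.9) and hsp-16.41 with 195 (41.8 to 60.1). WT no auxin replicate 1 stood apart in hsp-16.2 with 284 (25.95 to 41.1) and hsp-16.41 with 275 (30.3 to 43.2). In WT auxin replicate 2, hsp-1 was low at 74020 (85524 to 87273) and hsp-4 was low at 12066 (13464 to 13659). hsp-4 was also low in Somatic no auxin replicate 4, at 12007 (13372 to 13535). The remaining libraries were those of dnj-15 in WT no auxin replicate 2 at 926 (784 to 807), dnj-16 in WT no auxin replicate 3 at 1766 (1922 to 1952), hsp-12.6 in WT no auxin replicate 3 at 9.48 (4.78 to 5.20), dnj-19 in Neuronal auxin replicate 1 at 6968 (6694 to 6733), hsp-12.2 in Neuronal auxin replicate 3 at 133 (94.8 to 99.7) and hsp-25 in Neuronal no auxin replicate 4 at 873 (803 to 809.6). The cause of these differences was not tested.

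The response to auxin differed between strains by the test of the difference in limma. For RAGA-1::AID Somatic minus RAGA-1::AID Neuronal, the differences on the log2 scale were -0.33 for hsp-60, -0.15 for cct-6, -0.15 for dnj-8 and -0.15 for hsp-75. For RAGA-1::AID Somatic minus WT, they were -0.39 for dnj-15, -0.29 for dnj-26, -0.23 for hsp-60, -0.22 for hsp-75, -0.18 for dnj-8, -0.15 for dnj-5, -0.14 for cct-6, 0.24 for dnj-19, 0.28 for dnj-13 and 0.29 for dnj-20.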

How the results depend on the processing

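The 6 higher and 16 lower chaperones after somatic AID became 2 and 12 with replicates 1 and 4 alone, 2 and 4 with replicates 2 and 3 alone, and 4 to 7 and 11 to 14 when 1 library was left out. Of the 22 calls, 12 held in all 12 settings that kept all 4 replicates and in all 8 fits without 1 Somatic library. These settings include a fit of only the compared libraries. They also include the looser adjusted p of 0.05, under which no call can be lost. The 4 members whose somatic and neuronal responses differed became 2 with no filter, 2 with TMM factors, 2 with edgeR, 9 with DESeq2, 10 with a replicate block in limma, 9 with a replicate block in edgeR, 11 at an adjusted p of 0.05, 1 with replicates 1 and 4 alone, 0 with replicates 2 and 3 alone, and 2 to 5 when 1 library was left out. The 10 that differed between the somatic and WT responses became 3 and 0 with these replicate pairs alone and 7 to 11 when 1 library was left out. With the replicate block in limma, 6 chaperones were higher and 18 lower after somatic AID, dnj-4 and cct-7 being added. In that fit 11 differed between the somatic and WT responses, hsp-6 being added. The pairing of the AID strains rests there on the number and on the correlations above, where 3 of 4 pairs in each lay over 0.1.

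No called value changed direction. Some that were not called did: dnj-27 was at 0.0014 with TMM factors, 0.081 with replicates 1 and 4 alone and -0.050 to 0.038 without 1 library. hsp-12.6, at under 30 normalized counts, was at -0.23 with quantile normalization, -0.17 with edgeR, -0.10 with a replicate block in edgeR, -0.16 with DESeq2, -0.54 with replicates 2 and 3 alone and -0.12 to 0.62 without 1 library. With replicates 1 and 4 alone hsp-1 was at -0.0087 and hsp-90 at -0.032 (-0.0074 to 0.040 without 1 library). With replicates 2 and 3 alone hsp-3 was at -0.014 and hsp-43 at -0.11. The cause was not tested. hsp-12.1, hsp-12.3 and hsp-12.6 held 2.39 to 28.6 normalized counts in all libraries, and depth was not tested as a limit.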
